A study of Homo sapiens with 17 samples.

Results

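The 9 genes described here encode the receptors through which a cell reads progesterone, estrogen and glucocorticoid. They were chosen by name, with earlier results of these data known. They are 9 of the 60662 genes counted in 17 RNA-seq libraries of Ishikawa cells. This line was grown from a human endometrial adenocarcinoma and is used as a model of the uterine epithelium. PGR, ESR1, ESR2 and NR3C1 encode the nuclear receptors for progesterone (P4), for estrogen (the alpha and beta forms) and for glucocorticoids. PAQR7, PAQR8 and PAQR5 encode the membrane progestin receptors alpha, beta and gamma, and PGRMC1 and PGRMC2 encode haem-binding membrane proteins known as progesterone receptor membrane components.

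Nuclear receptors wait in complexes with chaperones of the HSP90 and HSP70 families, bind hormone, and then act on DNA with coactivators and corepressors. In the uterine epithelium estrogen acting through ESR1 induces PGR, and progesterone acting through PGR opposes estrogen action and lowers the receptors for both hormones over the luteal phase. NR3C1 recognises the same DNA element as PGR and shares many of its target genes. The PAQR proteins are membrane proteins linked to rapid, non-genomic progestin signals, and the PGRMC proteins take part in haem transport, cytochrome P450 activity and sterol handling.

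All cultures were grown in medium with charcoal-stripped serum, which holds little steroid, and were harvested after 24 h. The control group (n = 3) received medium alone. The vehicle control (n = 3) is labelled as Nap with ethanol, the Nap only group (n = 2) as Nap alone, and the P4 group (n = 3) as Nap with P4. The meaning of Nap is not given in the sources used here. The sources differ on the dose of P4, so none is printed. Ethanol is named for the vehicle control and for no other group, so an effect of ethanol and an effect of P4 cannot be told apart between P4 and the vehicle control. The other 6 libraries carry labels that contradict each other. Those in the count columns named PSAT1_P4 are titled and annotated as recombinant human PSAT1 without P4, and those in the columns named PSAT1 are annotated as PSAT1 with P4. PSAT1 is an enzyme of serine synthesis, and under either label all 6 cultures received the recombinant protein. They are named here by their columns (n = 3 each), and no treatment is read from their values. The labels call the libraries biological replicates but name no separate culture days, so p-values measure the spread between these libraries.

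Total counts were between 4999521 and 19704493 per library, with vehicle control replicate 1 the smallest, and each pair of replicates was further apart than sampling of reads allows (chi-square per degree of freedom 1.54 to 20.6). The label of an endometrial epithelial line was checked with 9 epithelial markers, all of which were detected, with EPCAM at 177 ± 5.79 CPM in the vehicle control and 188 ± 10.6 CPM in P4 (SD, n = 3). CPM here is the usual count per megaread, scaled between libraries by the TMM method of edgeR. Of 10 stromal and immune markers, DCN and PECAM1 had at most 3 counts in every library, whereas COL1A2 stood at 267 ± 13.4 CPM in the vehicle control. Both marker sums were lower in P4. The epithelial sum lay at 1224 to 1356 CPM in P4 and 1614 to 1638 CPM in the vehicle control, and the stromal and immune sum at 128 to 180 CPM and 346 to 362 CPM. Of the stromal and immune markers 4 passed the filter on low counts and COL1A1, COL1A2 and HAND2 fell. Of the epithelial markers 5 fell (KRT8, KRT18, KRT19, CLDN4 and PAX8) and 1 rose (CDH1), beside 26.5% and 26.6% of all genes tested. EPCAM was not called. In the PSAT1 columns the stromal and immune sum was 431 to 648 CPM and in the PSAT1_P4 columns 132 to 161 CPM. What part these markers have in the receptor results was not tested. In bulk RNA, fewer cells carrying a transcript and less transcript per cell cannot be told apart.

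The promoters of PGR and PGRMC1, the members with the largest falls in P4 against the vehicle control, are shown first. ESR1 fell less, and its 6 windows, 1 of them with a progesterone and glucocorticoid core, are not printed. The sequences are from RefSeq on GRCh38.p14 and run from 250 bases before to 50 bases after an annotated transcription start. RefSeq windows were found for 6 of the 9 members, 23 windows in all. PGR has 3, of which 2 overlap, so 1 of those and the separate one are printed. Capitals mark matches on either strand to 4 motifs: the core arm of the estrogen response element GGTCA, the core arm of the shared progesterone and glucocorticoid response element TGTTCT, the AP-1 site TGANTCA and the SP1 box GGGCGG. No match overlapped another in the printed windows.
PGR, chr11:101129028-101129327, minus strand: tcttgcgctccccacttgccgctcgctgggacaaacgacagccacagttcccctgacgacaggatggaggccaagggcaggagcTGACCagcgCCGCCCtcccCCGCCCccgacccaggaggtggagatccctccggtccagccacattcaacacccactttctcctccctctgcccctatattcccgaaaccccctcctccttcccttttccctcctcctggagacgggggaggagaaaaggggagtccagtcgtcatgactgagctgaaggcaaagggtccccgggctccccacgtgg
PGR, chr11:101129764-101130063, minus strand: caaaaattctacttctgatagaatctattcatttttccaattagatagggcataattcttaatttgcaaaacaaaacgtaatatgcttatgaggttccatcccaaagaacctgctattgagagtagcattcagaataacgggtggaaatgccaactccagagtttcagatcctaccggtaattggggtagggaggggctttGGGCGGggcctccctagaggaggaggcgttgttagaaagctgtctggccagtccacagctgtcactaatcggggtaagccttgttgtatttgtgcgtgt
PGRMC1, chrX:119236035-119236334, plus strand: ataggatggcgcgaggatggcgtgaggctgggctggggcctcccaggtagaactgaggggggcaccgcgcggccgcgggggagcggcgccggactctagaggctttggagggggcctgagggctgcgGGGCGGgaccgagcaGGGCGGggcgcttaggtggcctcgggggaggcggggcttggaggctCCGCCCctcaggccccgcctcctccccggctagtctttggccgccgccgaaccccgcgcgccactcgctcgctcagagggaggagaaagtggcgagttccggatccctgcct

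Both PGR windows lie inside the PGR gene as GENCODE 29 draws it (chr11:101029624-101130524, minus strand). The first holds 1 estrogen core, which begins at base 85, and 2 SP1 boxes at bases 94 and 104, and the second holds 1 SP1 box at base 202. The PGRMC1 window (gene at chrX:119236245-119244466, plus strand) holds 3 SP1 boxes at bases 128, 143 and 189 and none of the other motifs. The estrogen core occurs in 37.4% of the 35116 promoter windows in RefSeq, the progesterone and glucocorticoid core in 14.8%, the AP-1 site in 7.71% and the SP1 box in 44.95%. No member's window held 2 opposed cores 3 bases apart in either order, of which only 1 order is the layout of a full element. Such pairs, counted in either order, are found in 0.0740% of windows for estrogen and 0.00854% for progesterone and glucocorticoid. A match is a run of letters and not a bound site.

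PGR was the member whose count moved furthest. The control libraries stood at 102, 114 and 116 CPM and the Nap only libraries at 101 and 144 CPM. The vehicle controls were lower, at 49.9, 60.5 and 61.8 CPM, and the P4 libraries lower still, at 27.6, 18.4 and 19.1 CPM. No library of P4 reached the lowest vehicle control, and no vehicle control reached the lowest control. In P4 against the vehicle control PGR fell by 1.44 on the log2 scale (SE 0.14, quasi-likelihood test of edgeR, Benjamini-Hochberg adjusted p = 4.96e-06), a 2.71-fold lower level. Against Nap only the log2 difference was -2.54 (SE 0.19, edgeR adjusted p = 4.94e-06) and against the control -2.38 (SE 0.13, edgeR adjusted p = 2.97e-10), 5.80-fold and 5.21-fold lower. These 3 comparisons share the P4 libraries and differ in what their reference received.

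**Figure D1:**
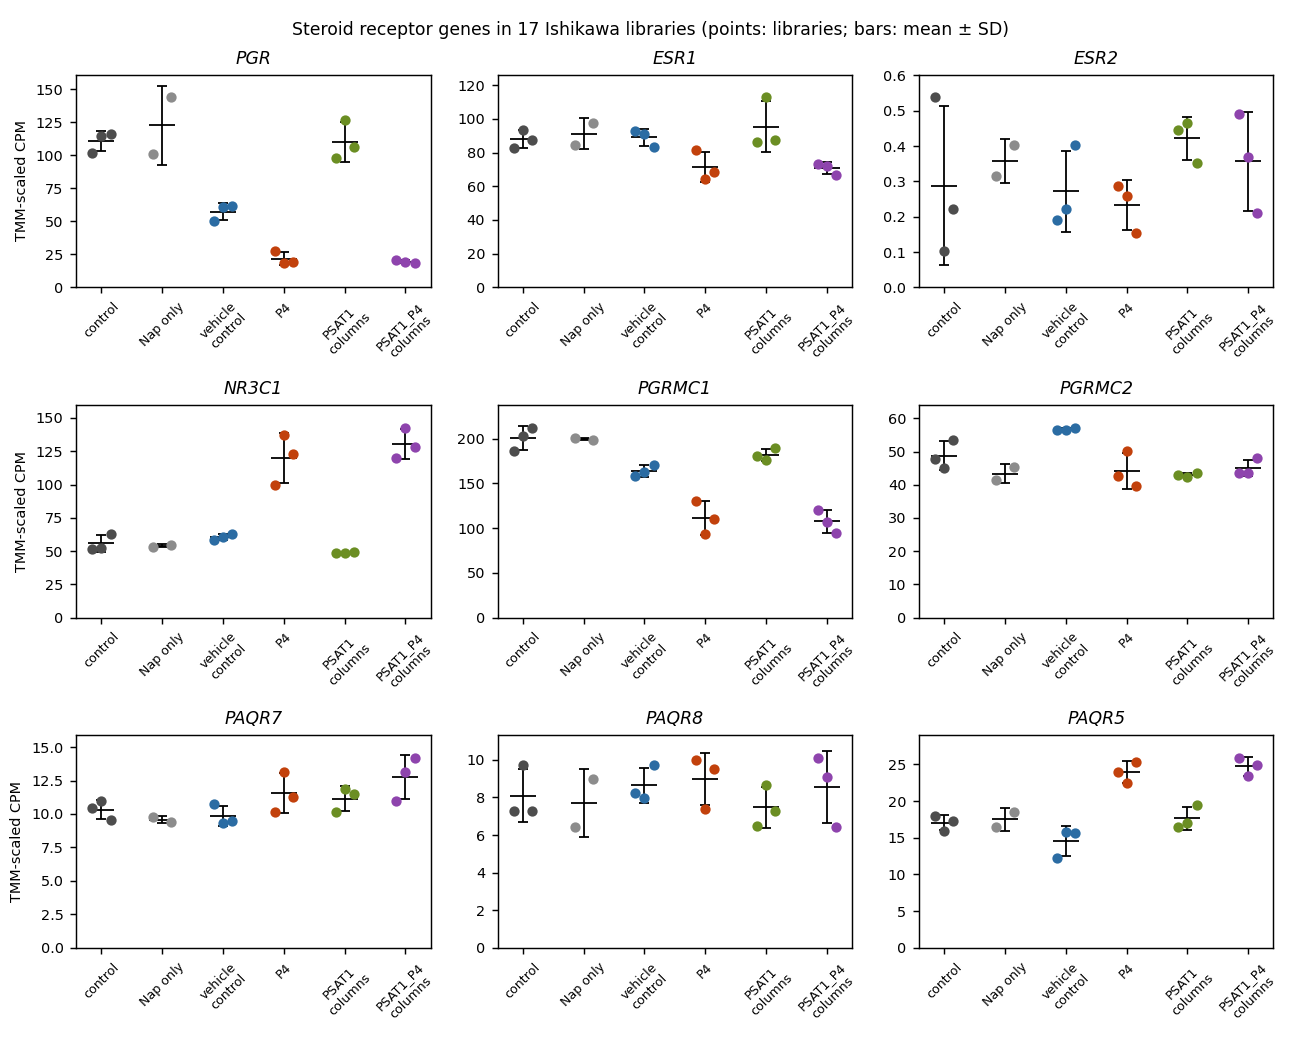
TMM-scaled CPM (vertical axes from 0) of the 9 receptor genes in each of 17 libraries by group, with points for libraries and bars for the mean ± SD. PGR falls from 102 to 116 CPM in the control to 18.4 to 27.6 CPM in P4 with the vehicle control between them, while NR3C1 and PAQR5 are higher in P4 and PAQR8 overlaps across all groups.

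The step from medium to vehicle was itself a step down for PGR. In the vehicle control against the control its log2 fold change was -0.93 (SE 0.08, edgeR adjusted p = 6.77e-08), a 1.91-fold lower level. Against Nap only, which lacks ethanol in its label, the value was -1.07 (SE 0.19, edgeR adjusted p = 0.0225). This last call rested on single libraries, since without vehicle control replicate 2 the edgeR adjusted p was 0.0560 and without replicate 3 it was 0.0590, with log2 fold changes of -1.11 and -1.13. Nap only and control libraries overlapped for PGR.

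The count table gives 1 number for all PGR transcripts, so the A and B receptor forms, which start from different promoters of the gene, were not separated. PGR shares 812 exonic bases, 5.27% of its merged exon length of 15404 bases, with PGR-AS1 on the other strand, and the strand setting of the counting is not given in the sources used here. PGR-AS1 itself had 4 to 8 counts in P4, 8 to 14 in the vehicle control and 6 to 31 in the control.

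ESR1, the estrogen receptor alpha gene (chr6:151656691-152129619, plus strand), changed less. Its P4 libraries stood at 81.6, 64.4 and 68.5 CPM, the vehicle controls at 93.0, 91.2 and 83.2 CPM and the controls at 82.7, 93.3 and 87.8 CPM. All P4 libraries lay under all vehicle controls, but the highest P4 library and the lowest vehicle control were close. ESR1 fell by 0.33 on the log2 scale against the vehicle control (SE 0.09, edgeR adjusted p = 0.00960), which is 1.26-fold. The call was lost without P4 replicate 3 (log2 fold change -0.29, edgeR adjusted p = 0.0550). Against Nap only the log2 difference was -0.38 (SE 0.12, edgeR adjusted p = 0.0168), and against the control -0.32 (SE 0.10, edgeR adjusted p = 0.0133). The call against Nap only was lost without P4 replicate 3 (edgeR adjusted p = 0.0760) or Nap only replicate 2 (0.211) and with the replicate number as a block (0.0531). Without a Nap only replicate that group is 1 library, which is assumed to vary like the P4 group. That against the control was lost without P4 replicate 2 (edgeR adjusted p = 0.0580), P4 replicate 3 (0.0841) or control replicate 2 (0.0530).

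ESR2, the estrogen receptor beta gene (chr14:64084232-64338112, minus strand), was near the limit of detection. It had 10, 2 and 3 counts in the control libraries, 4 and 6 in Nap only, 1, 3 and 5 in the vehicle controls and 3, 3 and 2 in P4. It passed the filter on low counts in no comparison, and no difference was detectable at this depth. A floor of 3 counts stood at 0.152 to 0.600 CPM of the unscaled totals over the 17 libraries, and floors cover counting error only.

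NR3C1, the glucocorticoid receptor gene (chr5:143277931-143435512, minus strand), moved the other way. It stood at 51.5, 52.6 and 63.0 CPM in the control, 53.2 and 54.6 CPM in Nap only, 58.6, 60.4 and 62.7 CPM in the vehicle control and 99.4, 137 and 123 CPM in P4. Every P4 library lay above every library of the 3 reference groups. The rise over the vehicle control was 0.97 on the log2 scale (SE 0.10, edgeR adjusted p = 8.04e-06), or 1.95-fold. Over Nap only it was 1.123 (SE 0.12, edgeR adjusted p = 2.90e-05) and over the control 1.08 (SE 0.12, edgeR adjusted p = 4.87e-07). The vehicle control was not called against the control for NR3C1, with a log2 difference of 0.13 (SE 0.08, edgeR adjusted p = 0.274).

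The ratio of PGR to NR3C1 within a library, per length of merged exons, put both movements together. It lay at 1.10 to 1.30 in the control, 0.508 to 0.596 in the vehicle control and 0.0799 to 0.165 in P4. PGR to ESR1, by the same measure, went from 1.10 to 1.19 in the control to 0.483 to 0.668 in the vehicle control and 0.251 to 0.304 in P4. The control, vehicle control and P4 groups did not overlap in either ratio. Nap only, at 1.13 to 1.57 for PGR to NR3C1 and 1.08 to 1.32 for PGR to ESR1, overlapped the control in both.

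PGRMC1 was the most abundant member and fell with PGR. Its libraries stood at 187, 203 and 212 CPM in the control and 200.3 and 198 CPM in Nap only. The vehicle controls stood at 158, 163 and 171 CPM and the P4 libraries at 131, 93.3 and 110.1 CPM, again with no overlap at either step. PGRMC1 fell by 0.57 on the log2 scale in P4 against the vehicle control (SE 0.10, edgeR adjusted p = 5.05e-04), which is 1.49-fold, and by 0.87 against both Nap only (SE 0.12, edgeR adjusted p = 1.37e-04) and the control (SE 0.11, edgeR adjusted p = 4.38e-06). The vehicle control was lower than the control by 0.29 on the log2 scale (log2 fold change -0.29, SE 0.07, edgeR adjusted p = 0.00714) and lower than Nap only by a similar value of -0.28 (SE 0.06, edgeR adjusted p = 0.00112), a call that was lost with all 17 libraries in the fit (edgeR adjusted p = 0.0650).

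PGRMC2, on chr4:128269237-128288829 (minus strand), followed another course, and its answer depended on the reference. The vehicle controls stood close together at 56.4, 56.6 and 57.2 CPM, above the controls at 47.7, 44.97 and 53.6 CPM and the Nap only libraries at 41.4 and 45.3 CPM. P4 libraries, at 42.7, 50.1 and 39.7 CPM, lay under the vehicle controls but overlapped the other references. Against the vehicle control PGRMC2 fell by 0.38 on the log2 scale (SE 0.09, edgeR adjusted p = 0.00395). Against Nap only the log2 difference was -0.0033 (SE 0.12, edgeR adjusted p = 0.984) and against the control -0.16 (SE 0.11, edgeR adjusted p = 0.220).

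The higher PGRMC2 count in the vehicle control passed the test against Nap only (log2 fold change 0.39, SE 0.08, edgeR adjusted p = 7.56e-04). Against the control it was at the edge (log2 fold change 0.23, SE 0.08, edgeR adjusted p = 0.0478), and that call was lost under RLE normalization, DESeq2, no filter, a fit of all 17 libraries, and without any vehicle control replicate or control replicate 1 or 2, at adjusted p from 0.0501 to 0.170. The ratio of PGRMC1 to PGRMC2 per length was 9.43 to 10.9 in the control, 6.76 to 7.21 in the vehicle control and 4.49 to 7.38 in P4, where the last 2 groups overlapped.

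Among the membrane progestin receptors PAQR5 was the member that changed. PAQR5 (chr15:69298947-69407780, plus strand) stood at 12.2, 15.8 and 15.7 CPM in the vehicle control and 24.0, 22.4 and 25.4 CPM in P4. The control libraries stood at 17.9, 15.9 and 17.3 CPM and Nap only at 16.4 and 18.6 CPM. Every P4 library was above all of them. The rise was 0.67 on the log2 scale over the vehicle control (SE 0.11, edgeR adjusted p = 3.82e-04), or 1.59-fold. It was 0.42 over Nap only (SE 0.12, edgeR adjusted p = 0.0143) and 0.47 over the control (SE 0.11, edgeR adjusted p = 0.00198). The call over Nap only was lost without P4 replicate 3 (edgeR adjusted p = 0.0765) or Nap only replicate 1 (0.135), which again leaves 1 Nap only library, and with the replicate block (0.100).

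PAQR7 and PAQR8 were low and were not called. PAQR7 (chr1:25861210-25871253, minus strand) stood at 10.7, 9.35 and 9.49 CPM in the vehicle control and 10.2, 13.1 and 11.3 CPM in P4, with overlap. Its log2 fold change was 0.23 (SE 0.14, edgeR adjusted p = 0.167), but without P4 replicate 1 it was 0.32 and just past the threshold (edgeR adjusted p = 0.0493). PAQR8 (chr6:52361421-52407777, plus strand) stood at 8.23, 7.95 and 9.73 CPM in the vehicle control and 9.99, 7.38 and 9.53 CPM in P4. Its log2 fold change of 0.03 (SE 0.16, edgeR adjusted p = 0.887) changed sign with the scaling. PAQR7 shares 17.8% and PAQR5 8.56% of their exonic length with antisense transcripts, AL033528.2 with at most 4 counts and AC027237.3 with 8 to 36 counts in any library.

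**Figure D2:**
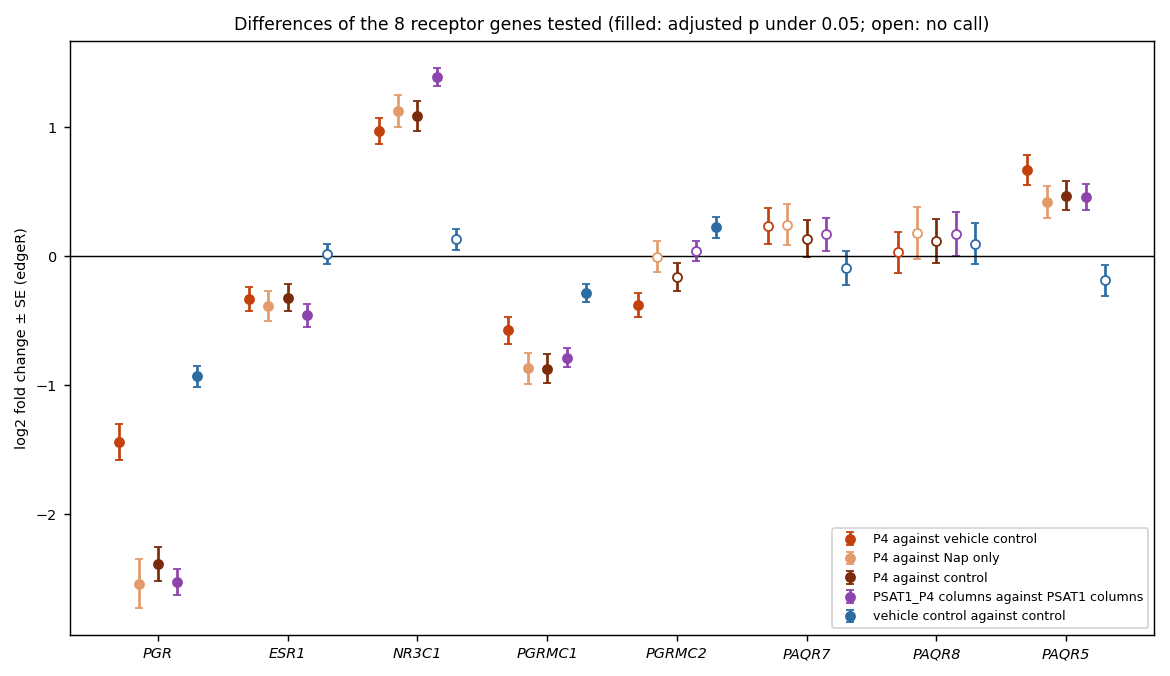
Log2 fold changes ± SE (vertical axis, edgeR) of the 8 receptor genes that passed the filter, in 5 comparisons shown by colour, with filled points for an adjusted p under 0.05 and open points for no call. PGR, ESR1 and PGRMC1 lie under 0 and NR3C1 and PAQR5 above 0 in all 4 comparisons other than vehicle control against control, and PGRMC2 is called only where the vehicle control enters.

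Counted together, 6 of the 8 members tested were called between P4 and the vehicle control, where 53% of 16540 genes tested were called. Of these members 2 rose, against 26.6% of all genes, and 4 fell, against 26.5%. Against Nap only 5 of 8 were called, with 49.7% of all genes, and against the control 5 of 8, with 54.8%. The background is so high that the member counts are not a result in themselves. Vehicle control against control called 3 of 8 members (22.6% of all genes), and vehicle control against Nap only 3 of 8 (23.8%), the same genes in both, PGR, PGRMC1 and PGRMC2. For P4 against Nap only the count was 3 rather than 5 with the replicate block and also without P4 replicate 3.

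The 2 sets of PSAT1 libraries share no library with the comparison of P4 and the vehicle control. PGR stood at 97.6, 127 and 106 CPM in the columns named PSAT1 and at 20.9, 19.2 and 18.3 CPM in those named PSAT1_P4. NR3C1 stood at 48.7, 48.5 and 49.4 CPM and at 119.99, 143 and 128 CPM in the same order. Neither gene's sets overlapped. The log2 difference of the PSAT1_P4 columns from the PSAT1 columns was -2.52 for PGR (SE 0.10, edgeR adjusted p = 1.89e-13) and 1.39 for NR3C1 (SE 0.07, edgeR adjusted p = 3.02e-12).

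PGRMC1 stood at 181, 176 and 189 CPM in the PSAT1 columns and 120.5, 107 and 94.9 CPM in the PSAT1_P4 columns. PAQR5 stood at 16.4, 17.1 and 19.4 CPM and at 25.9, 23.4 and 24.9 CPM, and ESR1 at 86.3, 113 and 87.3 CPM and at 73.2, 72.2 and 66.6 CPM. The sets lay apart for all of these genes. Log2 differences were -0.78 for PGRMC1 (SE 0.08, edgeR adjusted p = 2.66e-08), 0.46 for PAQR5 (SE 0.10, edgeR adjusted p = 6.29e-04) and -0.46 for ESR1 (SE 0.09, edgeR adjusted p = 3.19e-04).

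PGRMC2, PAQR7 and PAQR8 were not called between the column sets. PGRMC2 had a log2 difference of 0.04 (SE 0.08, edgeR adjusted p = 0.654), PAQR7 of 0.17 (SE 0.13, edgeR adjusted p = 0.267) and PAQR8 of 0.17 (SE 0.17, edgeR adjusted p = 0.389). In total 5 of 8 members were called, with 62.3% of 16586 genes. ESR2 had 7, 7 and 6 counts in the PSAT1 columns and 5, 4 and 2 in the PSAT1_P4 columns.

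Against the control, the PSAT1 columns called no member, and 0% of 17214 genes. In that comparison edgeR's test had 1004 genes at an unadjusted p under 0.05, and DESeq2 also called 0, whereas 29 genes were called with the replicate block, 14 without a filter and 5 without PSAT1 columns replicate 1. No receptor was among the genes called in these settings. PGR had a log2 difference of 0.0049 (SE 0.09, edgeR adjusted p = 0.996). The PSAT1_P4 columns against the control called 5 of 8 members, with 60.2% of all genes. PGR had a log2 difference of -2.52 (SE 0.10), ESR1 of -0.33 (SE 0.09), NR3C1 of 1.22 (SE 0.09), PGRMC1 of -0.91 (SE 0.09) and PAQR5 of 0.52 (SE 0.11), at edgeR adjusted p from 8.11e-20 to 0.00155.

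Levels of different genes were compared per length, as log2(RPKM + 0.1), where RPKM is the TMM-scaled CPM per 1000 bases of merged exons. In the control PGRMC1 was highest at 6.71 ± 0.10 on this scale (SD, n = 3), followed by PGRMC2 at 3.41 ± 0.13, PGR at 2.86 ± 0.10, ESR1 at 2.69 ± 0.09 and NR3C1 at 2.62 ± 0.16. PAQR7 followed at 1.69 ± 0.09, PAQR5 at 1.503 ± 0.09, PAQR8 at 0.75 ± 0.23 and ESR2 at -2.95 ± 0.26. PGR overlapped ESR1 and ESR1 overlapped NR3C1 in the ranges of their libraries, and the other 6 neighbours in the order did not overlap.

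In P4 the order differed. NR3C1 came after PGRMC1, at 3.71 ± 0.23, above PGRMC2 at 3.26 ± 0.17, ESR1 at 2.39 ± 0.17, PAQR5 at 1.98 ± 0.09, PAQR7 at 1.84 ± 0.18, PAQR8 at 0.89 ± 0.22 and PGR at 0.57 ± 0.30 on the same log2 scale (SD, n = 3). PGR had moved from the third place in the control to the eighth, next to PAQR8, with which it overlapped. PAQR5 and PAQR7 also overlapped in P4, so their order there is not read as a difference. As linear RPKM, PGR was 6.61 to 7.55 in the control, 3.24 to 4.01 in the vehicle control and 1.19 to 1.79 in P4. NR3C1 was 5.61 to 6.87, 6.38 to 6.84 and 10.8 to 14.9.

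**Figure D3:**
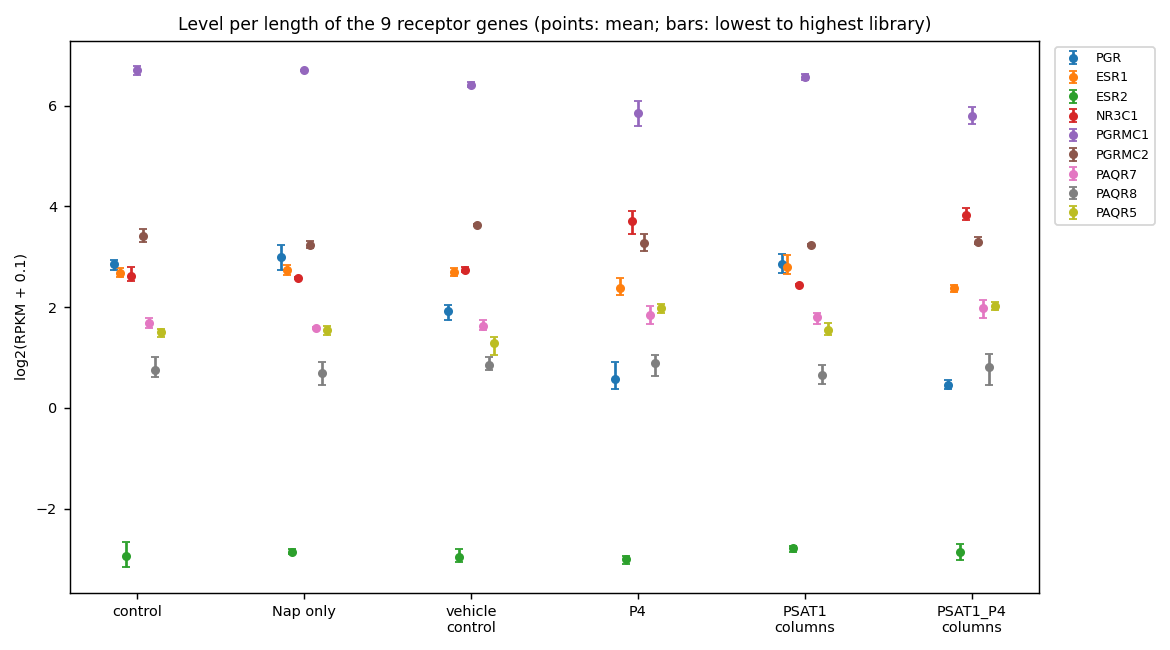
Level per length of the 9 receptor genes, log2(RPKM + 0.1) on the vertical axis, in the 6 groups, with points for the mean and bars from the lowest to the highest library. PGRMC1 is highest and ESR2 lowest in every group, and PGR drops from 2.86 in the control to 0.57 in P4 while NR3C1 goes from 2.62 to 3.71.

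In the vehicle control PGR lay at 1.93 ± 0.16, under NR3C1 at 2.74 ± 0.05 and ESR1 at 2.71 ± 0.08, and overlapped PAQR7 at 1.62 ± 0.10. In the PSAT1 columns the order was that of the control, and in the PSAT1_P4 columns it was that of P4. PAQR5 and PAQR7 overlapped in both column sets. A level per length depends on the length taken. With the longest transcript in place of merged exons ESR1 in the control stood at 3.77, above PGR at 3.03. The 13854 bases of its merged exons are far more than the 6466 of its longest transcript. ESR1 then also came before PGRMC2 at 3.69, with overlap, and PGR was at rank 4. PAQR5 at 1.72 then came before PAQR7 at 1.69, also with overlap.

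For each member above 1 CPM, the protein-coding genes with the most similar pattern, up to 2, were taken by Pearson's r of log2(CPM + 0.5) over the 17 libraries among 12554 genes. The libraries fall into the same groups for every gene, so r is given as a description. PGR was closest to EHF (r = 0.993), an ETS-family transcription factor of epithelia, and GCNT2 (r = 0.990), a glycosyltransferase. EHF had a mean of 42.6 CPM in the control, 22.3 in the vehicle control and 8.42 in P4, and so also had a middle level in the vehicle control. ESR1 was closest to SH3D21 (r = 0.944) and SLC35E2A (r = 0.938), and PGRMC1 to SRP9 (r = 0.990), part of the signal recognition particle, and ARL6IP5 (r = 0.990).

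For NR3C1, ARHGAP5, a GTPase-activating protein, had r = 0.994. PAQR5 was closest to CHRD (r = 0.944), the secreted BMP antagonist chordin, and GABPB1 (r = 0.942). PGRMC2 was closest to CNOT6 (r = 0.901) and SYPL1 (r = 0.896), PAQR7 to DRG2 (r = 0.946) and SAFB2 (r = 0.874), and PAQR8 to ECEL1 (r = 0.819) and KIF17 (r = 0.812). Among the members themselves PGR and PGRMC1 had r = 0.964, PGR and NR3C1 -0.956, and PGR and PGRMC2 0.0633.

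Genes that work with the receptors were described from lists, with values for P4 against the vehicle control. The called members of smallest adjusted p are named. These lists were drawn up with earlier results of these data known. The median log2 fold change over all genes tested was -0.013. Counts below for P4 against the vehicle control are to be read against the 26.6% of all genes that rose and the 26.5% that fell. Of 6 further receptor genes for steroid hormones or of the estrogen-related family, 5 were tested, 1 rose and 3 fell, with a median of -0.31. NR3C2, the mineralocorticoid receptor, rose from 51.1 ± 1.29 to 66.4 ± 2.89 CPM (SD, n = 3, log2 fold change 0.36, edgeR adjusted p = 0.00110). ESRRB fell from 12.0 ± 0.98 to 4.50 ± 0.95 CPM (log2 fold change -1.44, edgeR adjusted p = 2.06e-05). Leaving out 1 replicate gave 2 to 5 calls rather than 4, with 2 reached without P4 replicate 3 or without vehicle control replicate 3.

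Of 10 relatives of the PAQR and PGRMC proteins, 8 were tested, 1 rose and 4 fell, with a median of -0.24. The adiponectin receptor genes were split, with ADIPOR1 at a log2 fold change of 0.19 (edgeR adjusted p = 0.0313) and ADIPOR2 at -0.27 (edgeR adjusted p = 0.00333). PAQR4 fell from 20.2 ± 0.63 to 9.55 ± 1.53 CPM (log2 fold change -1.11, edgeR adjusted p = 1.81e-05), and MMD2 was at or under 3 counts in every library. Leaving out 1 replicate gave 3 to 7 calls rather than 5, with 3 reached without P4 replicate 3 or vehicle control replicate 1. Of 8 partners of the PGRMC proteins, 2 rose and 2 fell, with a median of 0.06, which is about the 53% called among all genes. TMEM97, the sigma-2 receptor, fell from 91.6 ± 7.41 to 43.0 ± 5.83 CPM (log2 fold change -1.11, edgeR adjusted p = 2.73e-06) and SERBP1, an RNA-binding partner of PGRMC1, had a log2 fold change of -0.34 (edgeR adjusted p = 3.64e-04). INSIG1, a sterol-regulated protein, rose by 0.27 on the log2 scale (edgeR adjusted p = 0.0171).

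Of the 17 chaperones that hold the nuclear receptors, all tested, 1 rose, 9 fell and 7 had no call, with a median of -0.36, beside 26.6% of all genes that rose and 26.5% that fell. HSPA8, a constitutive HSP70, fell from 1641 ± 54.4 to 590 ± 50.8 CPM (log2 fold change -1.49, edgeR adjusted p = 1.65e-08) and DNAJA1, an HSP40, from 186 ± 5.58 to 67.9 ± 1.26 CPM (log2 fold change -1.47, edgeR adjusted p = 8.33e-09). FKBP5, a co-chaperone and itself a target of PGR and NR3C1, rose from 41.5 ± 2.94 to 49.7 ± 4.40 CPM (log2 fold change 0.25, edgeR adjusted p = 0.0348). Its level was 29.01 ± 3.56 CPM in the control, so the vehicle control lay between. Between the column sets 2 of the 17 chaperones were higher and 13 lower in the PSAT1_P4 columns, beside 30.7% and 31.6% of all genes. The 2 were FKBP5 at a log2 difference of 0.72 (edgeR adjusted p = 7.30e-07) and DNAJB1 at 0.23 (edgeR adjusted p = 0.0237). DNAJB1 had gone the other way in P4 against the vehicle control (log2 fold change -0.36, edgeR adjusted p = 0.0102).

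Of 15 coregulators 6 rose and 3 fell, with a median of 0.23, and the 9 called are near the 53% of all genes. With 1 replicate left out the number called was 6 to 11. The coactivators NCOA3 and NCOA1 rose by 0.86 and 0.62 on the log2 scale (edgeR adjusted p = 8.61e-06 and 1.38e-04), from 99.5 ± 2.60 to 182 ± 25.4 CPM and from 80.9 ± 10.6 to 127 ± 10.3 CPM. The arginine methyltransferase CARM1 had a log2 fold change of -0.61 (edgeR adjusted p = 1.88e-04). Between the column sets CARM1 had a log2 difference of -0.94 (edgeR adjusted p = 1.68e-08). Of 10 partner transcription factors 8 were tested, 3 rose and 1 fell, with a median of 0.27. KLF9, a PGR partner in the endometrium, rose from 8.54 ± 0.81 to 19.4 ± 2.50 CPM (log2 fold change 1.15, edgeR adjusted p = 1.90e-05), STAT3 rose by 0.35 (edgeR adjusted p = 0.00264) and HOXA10 had a log2 fold change of -0.50 (edgeR adjusted p = 0.00185). FOXA2 and GATA3 were at or under 3 counts in every library.

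**Figure D4:**
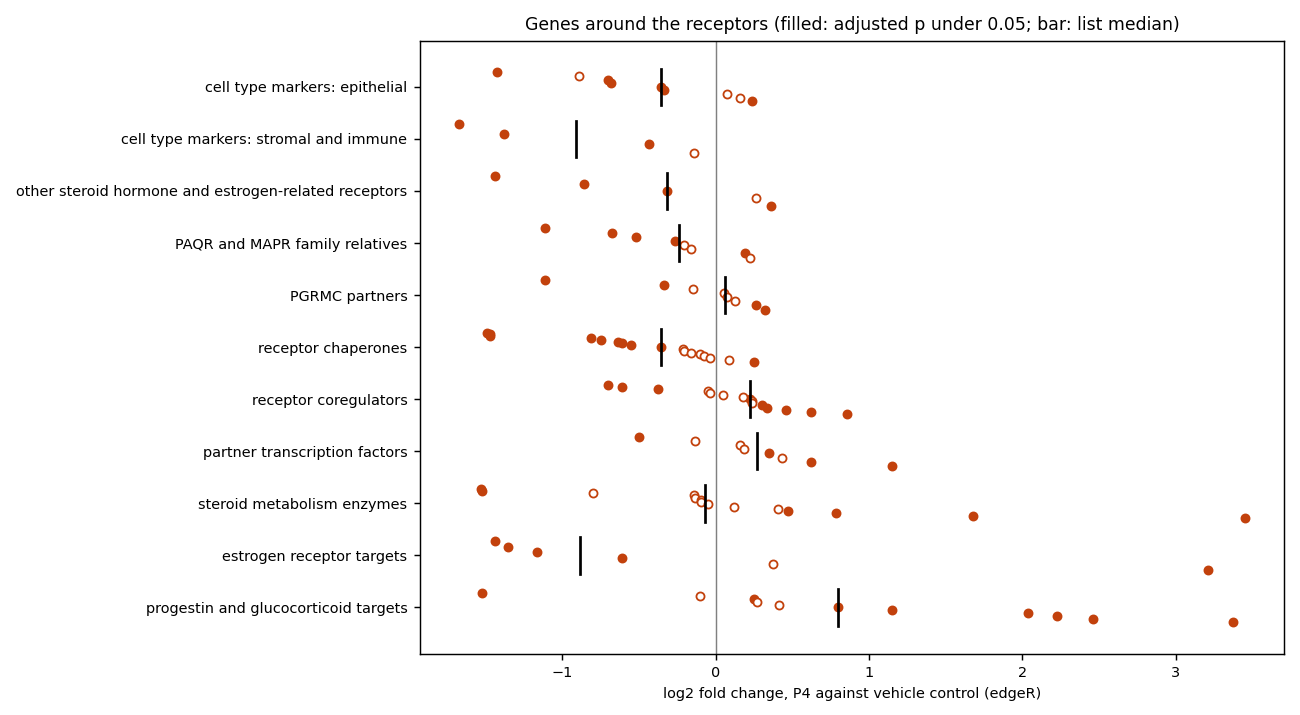
Log2 fold change in P4 against the vehicle control (horizontal axis, edgeR) of each tested gene in 11 lists (rows), with filled points for an adjusted p under 0.05, open points for no call and a black bar for the list median. The chaperone median is -0.36 and the progestin and glucocorticoid target median 0.80, and every list but the stromal and immune markers has genes on both sides of 0.

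Of 23 enzymes that make or remove steroids, 14 were tested, 4 rose and 2 fell, with a median of -0.07, a smaller share called than the 53% of all genes. HSD3B1, HSD3B2 and CYP19A1 had 0 counts in every library, and HSD17B2, HSD11B1, SRD5A2 and CYP11A1 at most 3. A count of 0 allows up to 3 counts. AKR1C1, which reduces progesterone, rose from 3.18 ± 0.29 to 10.1 ± 0.03 CPM (log2 fold change 1.68, edgeR adjusted p = 3.39e-06), though it is nearly identical in sequence to AKR1C2 and counting of unique alignments can split reads between them. SULT1E1, the estrogen sulfotransferase, had 0 to 3 counts in the vehicle controls and 18 to 25 in P4. It is among the 4 that rose, but passed the filter on low counts only through its P4 libraries. Its counts are therefore given without a test. STS, the steroid sulfatase, fell from 8.97 ± 0.32 to 3.14 ± 0.15 CPM (log2 fold change -1.53, edgeR adjusted p = 7.90e-06). HSD11B2, which inactivates cortisol, fell from 4.78 ± 0.46 to 1.66 ± 0.37 CPM (log2 fold change -1.52, edgeR adjusted p = 1.34e-04).

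Target genes of the receptors went in different directions. Of 12 estrogen receptor targets, a list that includes PGR, 6 were tested, 1 rose and 4 fell, with a median of -0.89. CCND1, cyclin D1, fell from 264 ± 0.90 to 119 ± 19.3 CPM (log2 fold change -1.16, edgeR adjusted p = 1.48e-06). IGFBP4 went the other way, with 2 to 5 counts in the vehicle controls and 25 to 48 in P4. It is the 1 that rose, and it too passed the filter only through its P4 libraries, so its counts are given without a test. TFF1 and CXCL12 were at or under 3 counts in every library. Of 14 progestin and glucocorticoid targets 11 were tested, 7 rose and 1 fell, with a median of 0.80, beside 26.6% of all genes that rose and 26.5% that fell. TSC22D3, the glucocorticoid-induced leucine zipper gene, rose from 12.3 ± 1.10 to 50.1 ± 5.54 CPM (log2 fold change 2.04, edgeR adjusted p = 5.18e-08). ERRFI1, an inhibitor of EGF receptor signalling, rose from 23.1 ± 3.30 to 110 ± 17.8 CPM (log2 fold change 2.23, edgeR adjusted p = 6.56e-08).

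Some classical progestin targets were not detected. ZBTB16 had 0 counts in every library, and HSD17B2 and IHH had at most 3. HSD11B2, named above, was the target that fell. The column sets share no library with these. Between them 9 of the 11 progestin and glucocorticoid targets tested were higher and 1 lower in the PSAT1_P4 columns, beside 30.7% and 31.6% of all genes. Only 10 of the list were tested between the PSAT1 columns and the control, so at least 1 target passed the filter only through its PSAT1_P4 libraries. It remains in the number tested and in the median. The median was 1.63 against -0.020 over all genes, and TSC22D3 and ERRFI1 had log2 differences of 2.05 and 2.45 (edgeR adjusted p = 2.49e-13 and 5.54e-14). Of the 6 estrogen receptor targets tested between the column sets 1 was higher and 4 were lower, beside the same 30.7% and 31.6%, with a median of -1.25. The 1 higher was IGFBP4. Only 5 of the list were tested between the PSAT1 columns and the control, so IGFBP4 passed the filter only through its PSAT1_P4 libraries. PGR itself is among the 4 lower.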

How the data were processed

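RNA-seq counts of 17 Ishikawa libraries were used, and 0 columns of the table were left out. Adapters were removed by the authors (Cutadapt) and low-quality reads dropped. Subread placed the rest, with only unique placements kept, and the authors deposited the raw featureCounts counts for genes of GENCODE 31. Tool versions and the strand setting are not given in the sources used here. Names, positions and lengths came from GENCODE 29 on GRCh38, which names 58587 of 60662 genes. A further 2054 were named from a gene name table.

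Each pair of groups was fitted alone in edgeR 4.0.16 (R 4.3.3) with TMM scaling, filterByExpr at a minimum count of 10, robust quasi-likelihood tests and Benjamini-Hochberg adjustment over all genes tested. Genes were called at an adjusted p under 0.05. DESeq2 1.42.0 was an alternative. The fit was tested on simulated counts. Tables and figures were made with Python 3.11.15, pandas 2.3.3 and matplotlib. The members and lists were chosen with earlier results of these data known. From each list, up to 2 called genes in each direction with the smallest adjusted p in P4 against the vehicle control are named, and genes with at most 3 counts everywhere. EPCAM, the epithelial markers that were called, the stromal markers that fell and overlapping antisense genes were named after their values were seen. So were DNAJB1, and CARM1, FKBP5 and IGFBP4 between the column sets. Some genes that this rule selects are not reported here.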

Additional observations from a re-analysis of the deposited data

How the results depend on the processing

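Over the alternatives to the fits (RLE or upper-quartile normalization, DESeq2, no filter, a stricter filter, all 17 libraries in the fit, the replicate block and leaving out each replicate), among the receptors called in a comparison, all receptors in P4 against vehicle control and between the column sets, and PGR and PGRMC2 elsewhere, 496 values kept their direction and side of the threshold, 22 lost a call, 2 gained one and 17 changed sign, all 17 in receptors that were not called. The PGR difference ranged from -1.64 to -1.34 for P4 against vehicle control and from -2.62 to -2.40 between the column sets, and that of NR3C1 from 0.87 to 1.09 and from 1.29 to 1.45. Counted over all receptors, leaving out 1 replicate gave 2 to 4 calls in vehicle control against control (3 with all replicates) and 5 to 6 in the PSAT1_P4 columns against control (5 with all). The cause of the changes below was not tested.

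The number of receptors called for P4 against Nap only was 3 with the replicate block and between 3 and 5 when 1 replicate was left out, with 3 reached without P4 replicate 3. Upper-quartile normalization turned PAQR8 in P4 against vehicle control to -0.056 and PGRMC2 between the column sets to -0.056, and made PGRMC2 a call in the PSAT1_P4 columns against control (edgeR adjusted p = 0.0422). It moved the median of all genes for P4 against vehicle control from -0.013 to -0.10, and the share of calls that were higher from 50.1% to 40.7%. PGRMC2 in P4 against Nap only was 0.0041 under RLE, 0.0045 under DESeq2, 0.024 with all 17 libraries and 0.072 with the replicate block. PGR in the PSAT1 columns against control was -0.0059 without a filter, -0.0081 with all 17 libraries and -0.00072 with the replicate block. Leaving out 1 replicate gave PAQR8 from -0.043 to 0.16, PGRMC2 in P4 against Nap only from -0.095 to 0.077, and PGR in the PSAT1 columns from -0.11 to 0.093. With all 17 libraries, PGRMC1 in vehicle control against Nap only lost its call (edgeR adjusted p = 0.0650). Between the column sets, 5 rather than 3 PGRMC partners were called under upper-quartile normalization, and 3 rather than 5 relatives of the PAQR and PGRMC proteins without PSAT1_P4 columns replicate 1 or PSAT1 columns replicate 2.

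Levels per length moved with their definition. A pseudocount of 1 gave 3.03 for PGR and 0.044 for ESR2 in the control. Libraries with the same replicate number did not deviate together (r from -0.116 to 0.201 over the comparisons), so the numbers were not taken as pairs, and the block changed no call of a receptor other than ESR1 and PAQR5 in P4 against Nap only. ESR2 was limited by depth.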
